A study of Mus musculus with 30 samples.

Results

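Lysozymes and 6 further genes that mark monocytes, macrophages and other white blood cells were followed in kidney and skeletal muscle of mice whose kidney tubules lack a gene needed for primary cilia. The 8 genes were Lyz1, Lyz2, Cd68, Csf1r, Itgam, Cd14, Tyrobp and Ptprc. They were taken by name, with every probe set annotated to 1 symbol, which gave 12 of the 31552 such probe sets, or 8 of 17781 genes. All 8 were measured, 5 with 1 probe set and 3 with more.

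Monocytes are made in bone marrow, circulate in blood and can become macrophages in tissues, which also hold macrophages seeded before birth. Both kinds of cell make most of these 8 products, and neutrophils share several, so the genes mark a family of cells and not where the cells came from. In kidney, macrophages gather around injured tubules, and in muscle they clear damaged fibres and take part in repair.

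Wild-type animals were compared with Kif3aΔTub mice, labelled Kif3aKSPCre, in which a Cre recombinase driven by the Ksp-cadherin promoter of tubule epithelium acts on Kif3a, a subunit of the motor that builds cilia. Animals of each genotype received PBS or sActRIIB-Fc, here the trap, which is the activin receptor IIB ectodomain on an antibody tail and soaks up activins. Doses of 10 mg/kg went into the peritoneum once a week, 2 in all, and tissues were frozen at 6 weeks of age. Each tissue had 3 untreated wild-type animals and 4 in each of the other groups, with 1 Affymetrix array for each tissue of each animal. Neither muscle fibres nor white blood cells are the target of this Cre.

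Values are log2 signals as deposited. Changes are differences of log2 group means ± standard error from limma. Called genes had a p under 0.05 once adjusted by the Benjamini-Hochberg method across the 17781 genes. P-values measure the spread between these animals. Bulk tissue was measured, so more cells of a type and more RNA per cell cannot be told apart. Whether dim values, such as those of Itgam in wild-type kidney, lay above background was not assessed.

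Kif3a itself was at 7.76, 7.89 and 7.84 in untreated wild-type kidneys and at 7.25, 7.38, 7.22 and 7.48 in untreated mutant kidneys (-0.50 ± 0.15, adjusted p = 0.011). In treated kidneys the wild type read 7.72, 7.34, 7.84 and 7.70 and the mutants 7.37, 7.75, 7.39 and 8.001, and the groups overlapped (-0.02 ± 0.14, adjusted p = 0.91). In muscle Kif3a spanned 6.71 to 7.42 in untreated mutants and 7.08 to 7.76 in untreated wild type, 7.18 to 7.41 in treated mutants and 7.37 to 7.72 in treated wild type. Whether the probe set lies in the deleted part was not assessed, so it may check nothing, and other kidney cells keep the gene. The tissues matched their labels: the mean of 9 muscle fibre markers was 14.0 to 14.1 in muscle and 4.20 to 5.04 in kidney, and that of 9 proximal tubule markers was 8.70 to 12.6 in kidney and 5.34 to 5.67 in muscle. Some arrays stood apart in the markers. The untreated mutant muscle numbered replicate 4 was the highest of its group in 8 of 8 markers, the treated mutant muscle replicate 2 in 6 of 8, and the treated wild-type kidney replicate 2 in 7 of 8. The untreated wild-type kidney replicate 1 was highest in 7 of 8 and the treated mutant kidney replicate 4 in 6 of 8, but leaving out any 1 kidney array left 8 of 8 markers called between genotypes. Several other marker results that rest on such arrays are given with and without them. Values of genes other than the 8 markers are given with all arrays only.

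Lyz1 and Lyz2 are neighbouring, near-identical genes on mouse chromosome 10, and the signal of their probe sets cannot be assigned to 1 copy with certainty. Both Lyz1 probe sets carry the _x_at suffix, which Affymetrix gives to sets with probes that match other transcripts too. The promoters of the pair are shown as a description. They do not bear on which transcripts the probes read, and probe and transcript sequences were not compared. The RefSeq promoter table of build GRCm38.p6 held 5 of the 8 genes, with 6 start sites. The 250 bases before the start of Lyz1 (chr10:117292869-117293118, minus strand) and of Lyz2 (chr10:117282273-117282522, minus strand), written 5′ to 3′, are given with the letters of an ETS-type motif in capitals.
Lyz1: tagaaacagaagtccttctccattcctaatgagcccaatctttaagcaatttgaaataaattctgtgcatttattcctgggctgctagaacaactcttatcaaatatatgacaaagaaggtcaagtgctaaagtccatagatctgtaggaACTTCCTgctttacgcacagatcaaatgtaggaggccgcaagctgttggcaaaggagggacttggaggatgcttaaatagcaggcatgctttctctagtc
Lyz2: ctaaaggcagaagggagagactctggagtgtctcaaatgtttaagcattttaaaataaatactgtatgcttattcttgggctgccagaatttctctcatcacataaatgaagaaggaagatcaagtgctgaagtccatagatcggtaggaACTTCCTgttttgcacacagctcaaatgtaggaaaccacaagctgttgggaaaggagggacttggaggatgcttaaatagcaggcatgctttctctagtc
Aligned over 252 columns, these stretches were identical at 200, or 79.4%. Next to the start, 50 bases in a row were the same, and 92 of the last 100 were. The motif AGGAAGT, which PU.1 and other ETS factors can bind, lay on the opposite strand in both, 100 to 94 bases before the start. This motif was chosen after the sequences were seen, and 7.69% of all 32851 promoters of that length hold it on either strand.

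Of the motifs listed earlier, GAGGAAG (the core of PU.1, the factor that drives the myeloid lineage) was found on either strand in 1 of the 6 start sites, that of Itgam, and in 10.6% of all promoters. The 120 bases before the start of Itgam (chr7:128062520-128062639, plus strand) show it in capitals, 84 to 78 bases before the start.
Itgam: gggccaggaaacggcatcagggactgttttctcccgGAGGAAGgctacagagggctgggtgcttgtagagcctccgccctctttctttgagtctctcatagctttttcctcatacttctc
TTGCNNAA, a C/EBP motif, lay in 2 of the 6, those of Cd68 and Lyz1, and in 9.56% of all promoters. TGANTCA, an AP-1 motif, lay in that of Cd68 alone, against 6.75% of all. These matches are letters in a window and were not tested for binding.

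All 8 markers rose in the kidneys of untreated mutants, by 1.93 to 4.20 on the log2 scale, or 3.81 to 18.4-fold. The lysozymes are secreted enzymes that cut bacterial cell walls, and Lyz2 is abundant in macrophages. Their probe sets rose most, and the CSF1 receptor and CD45 rose least. For each of the 8, every mutant array lay above every wild-type array. Called rises were common in this comparison, at 24.9% of all genes, and 27.7% of all genes were higher without overlap. The median change of the 8 markers was 3.42, against -0.08 for all genes.

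Lyz2 read 8.59, 7.65 and 8.24 in untreated wild-type kidneys. It read 11.93, 12.06, 12.78 and 12.68 in untreated mutant kidneys. Every mutant array was above every wild-type array, and the difference was 4.20 ± 0.26, or 18.4-fold (adjusted p = 8.5e-09). It ranked 14 of 17781 genes by rise. Lyz1 read 9.43, 8.39 and 8.83 in wild type and 12.82, 12.89, 13.26 and 13.22 in mutants. The groups were again apart, by 4.17 ± 0.24 (adjusted p = 3.7e-09), and the second Lyz1 probe set gave 4.16 ± 0.23. Since the copies share sequence, these are not independent measurements of 2 genes.

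Among the surface receptors, Cd14, which hands bacterial lipopolysaccharide to its toll-like receptor, rose most. It was at 6.50, 6.36 and 6.41 in wild type and at 10.41, 9.86, 10.40 and 10.09 in mutants. Both groups were tight and lay 3.77 ± 0.20 apart (13.6-fold, adjusted p = 1.5e-09). Tyrobp, the adaptor DAP12 that passes on signals of activating receptors, was at 7.09, 6.58 and 6.87 in wild type. In mutants it was at 10.16, 10.15, 10.60 and 10.50, which is 3.50 ± 0.19 higher (11.3-fold, adjusted p = 2.6e-09).

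Itgam, the integrin chain CD11b with which monocytes and neutrophils leave the blood, was at 3.70, 3.67 and 3.51 in wild-type kidneys. In mutants it was at 7.23, 6.30, 7.13 and 7.18, with replicate 2 below the others. The difference was 3.33 ± 0.31 (10.0-fold, adjusted p = 4.2e-07). Cd68, a glycoprotein of the lysosome membrane, read 5.21, 4.84 and 4.96 in wild type and 8.06, 7.69, 7.86 and 8.19 in mutants. It was 2.95 ± 0.22 higher (7.71-fold, adjusted p = 5.2e-08).

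Ptprc encodes CD45, the tyrosine phosphatase found on all white blood cells. Its main probe set read 7.19, 6.61 and 6.97 in wild type and 8.77, 8.80, 9.50 and 9.20 in mutants (2.15 ± 0.22, adjusted p = 1.3e-06). A second, dimmer set gave 0.74 ± 0.20 (adjusted p = 0.0059). Csf1r, the receptor for CSF1 on which macrophages depend, read 9.66, 9.75 and 9.76 in wild type and 11.41, 11.46, 11.91 and 11.82 in mutants (1.93 ± 0.16, adjusted p = 1.1e-07). Its other probe sets gave 1.78 ± 0.17 and 1.00 ± 0.14. All 12 probe sets of the 8 genes were called higher, as were 23.8% of all probe sets, and for Csf1r and Ptprc the size of the change depended on the probe set.

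**Figure D1:**
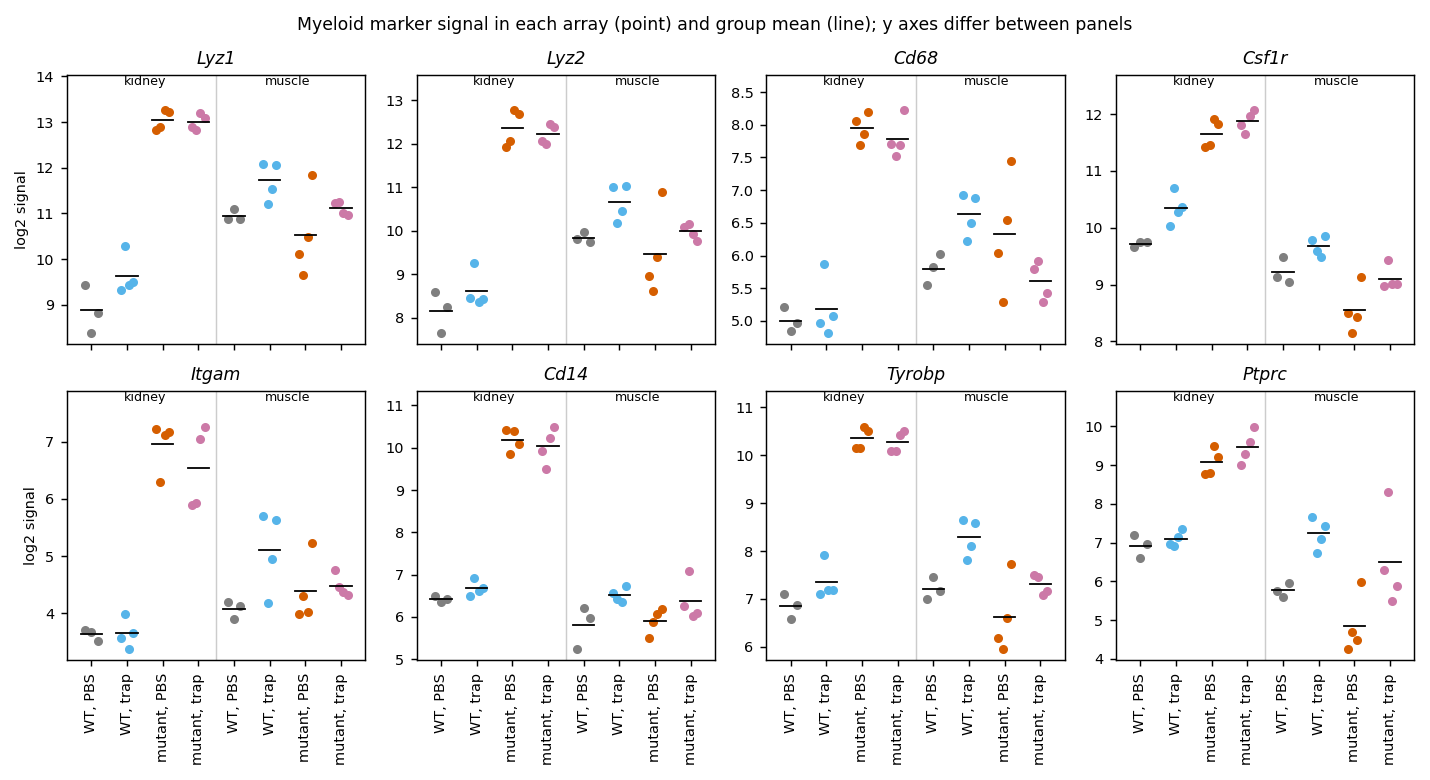
Log2 signal (y axis) of each marker's main probe set in each of the 8 groups (x axis), with a point per array and a line at the group mean. In kidney all mutant arrays lie above all wild-type arrays in the 8 panels, and in muscle the same untreated mutant, replicate 4, is the highest of its group in each panel.

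Most listed genes of the pathways around these markers rose too in untreated mutant kidneys. The lists were chosen with earlier results of these data known, so their counts here and below are a description. Of 4 genes of the CSF1 receptor axis 4 rose, among them the ligand Csf1 (2.71 ± 0.15) and the shared cytokine receptor chain Csf2rb (2.94 ± 0.19). Of 11 receptors and kinases linked to ITAM adaptors 9 rose and 1 fell, led by the antibody receptor Fcgr3 (4.13 ± 0.23) and by Fcer1g (2.57 ± 0.22), an adaptor like Tyrobp. Of 7 partners of CD14, 5 rose, such as Tlr1 (2.35 ± 0.28) and Lbp (2.33 ± 0.20), the protein that carries lipopolysaccharide to CD14. Of 6 leukocyte integrin genes 5 rose, with the integrin activator Fermt3 at 3.01 ± 0.23 and Itgb2, the chain that pairs with CD11b, at 2.48 ± 0.24.

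Ligands that recruit monocytes rose in 5 of 5 cases, with Ccl12 at 3.28 ± 0.25 and Ccl2 at 2.18 ± 0.24. Of 8 transcription factors of the myeloid lineage 5 rose and 1 fell, with the largest rises in Runx1 (3.23 ± 0.21) and Klf4 (2.57 ± 0.17), both of which other cells make too. Classical monocyte markers rose in 7 of 7 genes, with Chil3 at 3.76 ± 0.64 and F13a1 at 2.96 ± 0.25. Markers of resident macrophages rose in 8 of 12, with the haemoglobin scavenger receptor Cd163 at 4.31 ± 0.23 and the complement chain C1qb at 4.09 ± 0.24. Markers shared by monocytes and macrophages rose in 15 of 15, with the protease Ctss at 4.06 ± 0.16 and Laptm5 at 3.50 ± 0.19. Beside 24.9% of all genes called higher stood 26.7% called lower.

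Other members of the lysozyme families did not follow Lyz1 and Lyz2: of 7 measured, 0 rose and 2 fell, Lyg1 (-0.36 ± 0.11) and Lyzl1 (-0.34 ± 0.13). Lists of other white blood cells had few called rises. Of 11 neutrophil markers 2 rose, S100a8 (2.87 ± 0.67) and S100a9 (2.10 ± 0.62), which monocytes also make, and 1 fell. Rises were called in 1 of 12 T cell markers (Cd3g, 0.40 ± 0.11), 1 of 8 B cell markers (Cd79b, 1.28 ± 0.19), 0 of 8 NK cell markers, 1 of 9 dendritic cell markers (Clec10a, 0.96 ± 0.25) and 1 of 7 mast cell markers (Kit, 1.75 ± 0.15, which kidney epithelium can also make). Falls were called for 2 T cell, 2 B cell, 3 NK cell, 1 dendritic cell and 2 mast cell markers.

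Other cell types moved with the markers too. Of 9 proximal tubule markers 9 fell, such as the organic anion transporter Slc22a6 (-3.68 ± 0.50) and Miox (-3.46 ± 0.41). Their mean signal spanned 8.70 to 10.5 in untreated mutant kidneys and 12.40 to 12.44 in untreated wild type. Of 8 fibroblast markers 7 rose, such as Col1a1 (2.79 ± 0.41). Of 8 endothelial markers 1 rose (Cdh5, 0.89 ± 0.16), and of 2 red cell markers 1 fell (Alas2, -1.92 ± 0.50). As a sign of RNA quality, actin control signal at the 3 prime end minus that at the 5 prime end was 0.761 to 1.37 in untreated mutant kidneys and 1.40 to 1.50 in wild type. With that signal as a covariate 8 of 8 markers were still called, with a median of 3.20. The part of tubule loss in the rise was not tested.

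**Figure D2:**
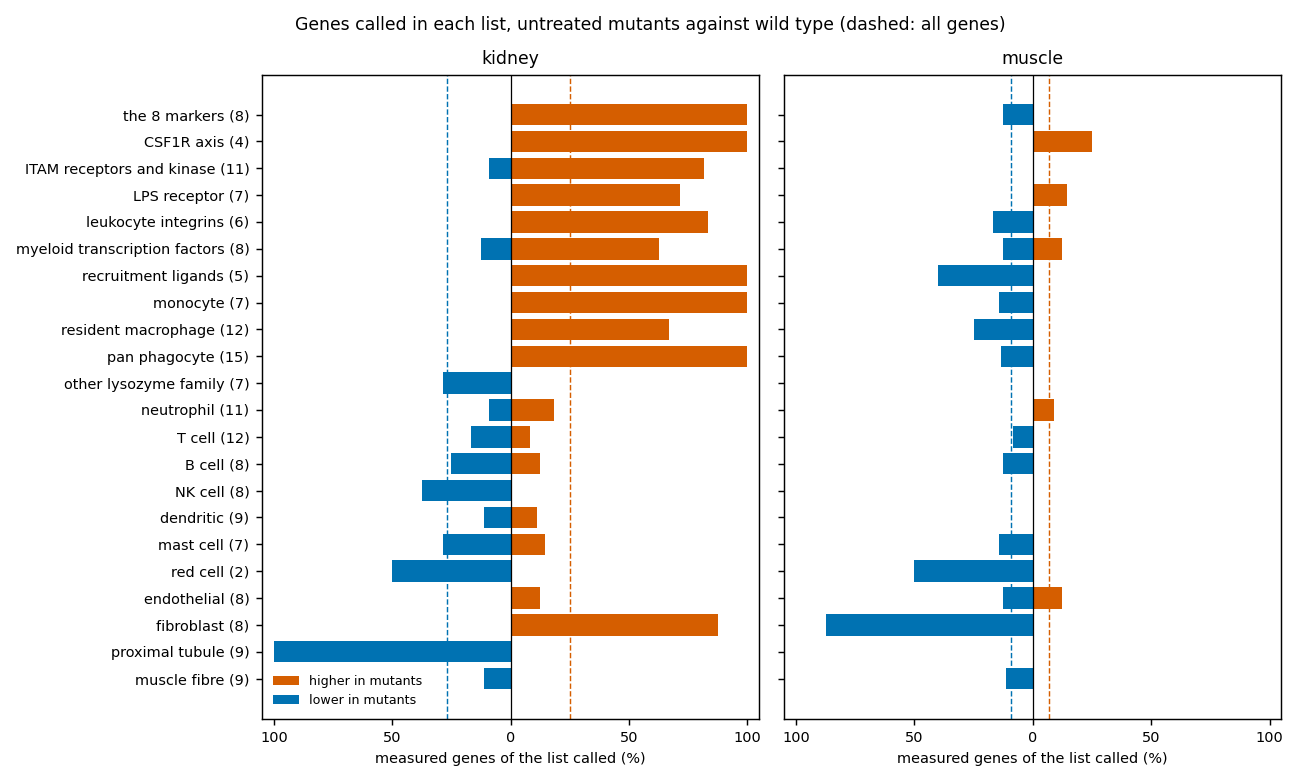
Share of the measured genes of each list (number in brackets) called higher to the right or lower to the left, in percent, in untreated mutants against untreated wild type. In kidney the lists of monocyte, resident macrophage and shared markers lie far to the right of the dashed line at 24.9% for all genes. Those of neutrophils, dendritic cells, mast cells, T, B and NK cells stay to its left. In muscle the longest bar is that of the fibroblast list, to the left, and none of the 8 markers is called higher.

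Under the trap the kidney difference between genotypes remained called in 8 of 8 markers, against 22.2% of all genes called higher. Lyz2 read 8.45, 9.26, 8.35 and 8.43 in treated wild type and 12.07, 11.99, 12.45 and 12.40 in treated mutants (3.60 ± 0.24, 12.2-fold, adjusted p = 3.4e-08). The groups did not overlap in any of the 8, as in 18.6% of all genes in this direction. Differences ran from 1.53 ± 0.15 for Csf1r to 3.60 for Lyz2, with Lyz1 at 3.37 ± 0.22, Cd14 at 3.35 ± 0.18, Tyrobp at 2.92 ± 0.18, Itgam at 2.90 ± 0.29, Cd68 at 2.60 ± 0.21 and Ptprc at 2.38 ± 0.21. In the surrounding lists 15 of 15 shared monocyte and macrophage markers rose, led by Ctss (3.52 ± 0.15) and Mpeg1 (3.36 ± 0.17), 10 of 12 resident macrophage markers rose, led by C1qb (3.48 ± 0.23) and C1qa (3.33 ± 0.21), and 5 of 7 monocyte markers rose, led by Ccr2 (2.87 ± 0.25), the receptor for Ccl2. Whether these counts differ from those under PBS was not tested.

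In mutant kidneys the trap was not followed by a called change in any of the 8 markers. limma called 0, against 2.4% of all genes, and 0 had an unadjusted p under 0.05, against 15% of all genes. Lyz2 read 12.07, 11.99, 12.45 and 12.40 with the trap and 11.93, 12.06, 12.78 and 12.68 with PBS (-0.13 ± 0.24, 95% interval -0.65 to 0.39). Changes of the 8 ran from -0.42 ± 0.29 for Itgam to 0.40 ± 0.21 for Ptprc, and the widest interval, that of Itgam, was -1.03 to 0.20. The interval of Lyz2 reaches down to -0.65, beside its rise of 4.20 with genotype. A few neighbours of the markers did change: Vsig4, a complement receptor of resident macrophages, rose by 2.60 ± 0.24, the integrin chain Itgal rose by 1.13 ± 0.21 and the monocyte marker Ms4a4c by 0.49 ± 0.12. F13a1 fell by 0.95 ± 0.23, Cd163 by 0.86 ± 0.21 and Klf4 by 0.65 ± 0.16 on the log2 scale. Of the proximal tubule markers 1 of 9 rose, Miox (1.86 ± 0.38).

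Treated mutant kidneys still lay far from untreated wild type, with 8 of 8 markers higher by 2.16 to 4.12, against 22.1% of all genes. That comparison shares its wild-type arrays with the untreated one.

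In wild-type kidneys the trap went with higher means of all 8 markers, by 0.02 to 0.75, but limma called 0 of 8, against 0.877% of all genes. An unadjusted p under 0.05 was reached by 3 of 8, as by 13.2% of all genes. Csf1r read 10.03, 10.71, 10.27 and 10.36 with the trap and 9.66, 9.75 and 9.76 with PBS (0.62 ± 0.16, adjusted p = 0.087), with no overlap. Lyz1 read 9.32, 10.29, 9.43 and 9.49 with the trap and 9.43, 8.39 and 8.83 with PBS (0.75 ± 0.24, adjusted p = 0.17), and its groups overlapped. Without the treated replicate 2 that stood apart, Csf1r was at 0.50 ± 0.15 (adjusted p = 0.15) and Lyz1 at 0.53 ± 0.21 (adjusted p = 0.30), and the means of Cd68 (-0.05 ± 0.17) and Itgam (-0.10 ± 0.33) were no longer higher. Without the treated replicate 1, Csf1r was called (0.73 ± 0.16, adjusted p = 0.029), as were 1.15% of all genes in this direction.

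The interaction, which asks whether the genotype difference differed between PBS and the trap in kidney, called 0 of 8 markers, against 1.38% of all genes, and 2 of 8 had an unadjusted p under 0.05, as did 13.6% of all genes. It was -0.79 ± 0.33 for Lyz1 (adjusted p = 0.29) and -0.58 ± 0.27 for Tyrobp (adjusted p = 0.35). Without the treated wild-type replicate 2 that stood apart, Lyz1 was at -0.57 ± 0.27 and Tyrobp at -0.39 ± 0.21. Neither then passed the unadjusted threshold. Without the treated wild-type replicate 1 they were larger, at -0.90 ± 0.34 for Lyz1 and -0.66 ± 0.27 for Tyrobp, and still not called. Among the neighbours the interaction was called for Cd163 (-1.46 ± 0.31, adjusted p = 0.032) and Klf4 (-1.20 ± 0.23, adjusted p = 0.021).

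**Figure D3:**
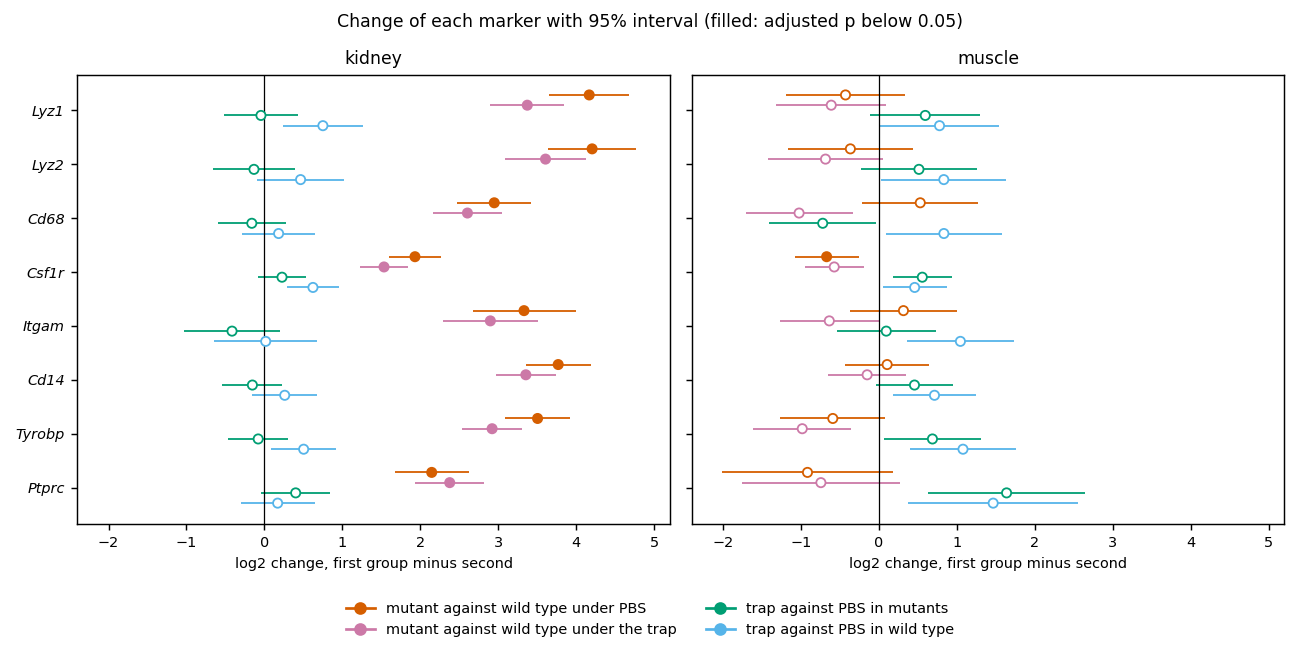
Log2 change (x axis) of each marker (y axis) with its 95% interval in 4 comparisons, kidney on the left and muscle on the right, filled where the adjusted p was under 0.05. The genotype differences in kidney lie between 1.53 and 4.20, while the intervals of the trap changes in mutant kidneys all include 0. In muscle the 8 means were below 0 for genotype under the trap and above 0 for the trap in wild type.

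Muscle did not show the rise seen in kidney. In untreated mutants 1 of 8 markers was called, Csf1r, and it was lower (9.04% of all genes were called lower and 6.92% higher). Csf1r read 9.13, 9.48 and 9.05 in wild-type muscle and 8.50, 8.15, 8.42 and 9.13 in mutant muscle (-0.67 ± 0.19, adjusted p = 0.027), and the groups overlapped through mutant replicate 4. This call did not hold widely: 8 of 24 alternative settings lost it, and its adjusted p ranged from 0.0027 to 0.14. The other Csf1r probe sets gave -0.51 ± 0.19 (adjusted p = 0.083) and -0.15 ± 0.14 (adjusted p = 0.55).

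Apart from Cd14 (SD 0.29, against 0.51 in wild type), the markers had larger SDs among untreated mutants than among untreated wild type. Lyz2 read 8.97, 8.61, 9.41 and 10.90 there and 9.80, 9.97 and 9.74 in wild type (-0.37 ± 0.38, adjusted p = 0.58). Tyrobp read 6.18, 5.95, 6.61 and 7.73 against 6.99, 7.46 and 7.18 (-0.59 ± 0.32, adjusted p = 0.24). In both, replicates 1 to 3 lay below the wild type and replicate 4 above it. That array also had the lowest 18S control signal in muscle, 12.5 against 12.9 to 13.4 in the others. Actin control signal at the 3 prime end minus the 5 prime end was -0.06 to 0.14 in untreated mutant muscle. In untreated wild-type muscle it was 0.16 to 0.18, without overlap. With that signal as a covariate Csf1r was at -0.55 ± 0.22 (adjusted p = 0.14).

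Without replicate 4, 4 of 8 markers were called lower in untreated mutant muscle: Lyz1 (-0.87 ± 0.23, adjusted p = 0.020), Lyz2 (-0.84 ± 0.23, adjusted p = 0.024), Csf1r (-0.86 ± 0.16, adjusted p = 0.0027) and Tyrobp (-0.96 ± 0.22, adjusted p = 0.010). The remaining markers were not called either way, and Cd68 was at 0.53 ± 0.35 with that array and 0.16 ± 0.27 without it. In 1 other alternative setting Cd68 was called higher in untreated mutants. In the fit without replicate 4, 8.06% of all genes were called lower. That array was singled out by its high values in these same markers, so the lower calls follow in part from the choice. Leaving out untreated mutant replicate 1, 2 or 3, or untreated wild-type replicate 1 or 2, lost the call of Csf1r instead (adjusted p of 0.052 to 0.14). The count of markers called lower in muscle thus depends on single animals.

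**Figure D4:**
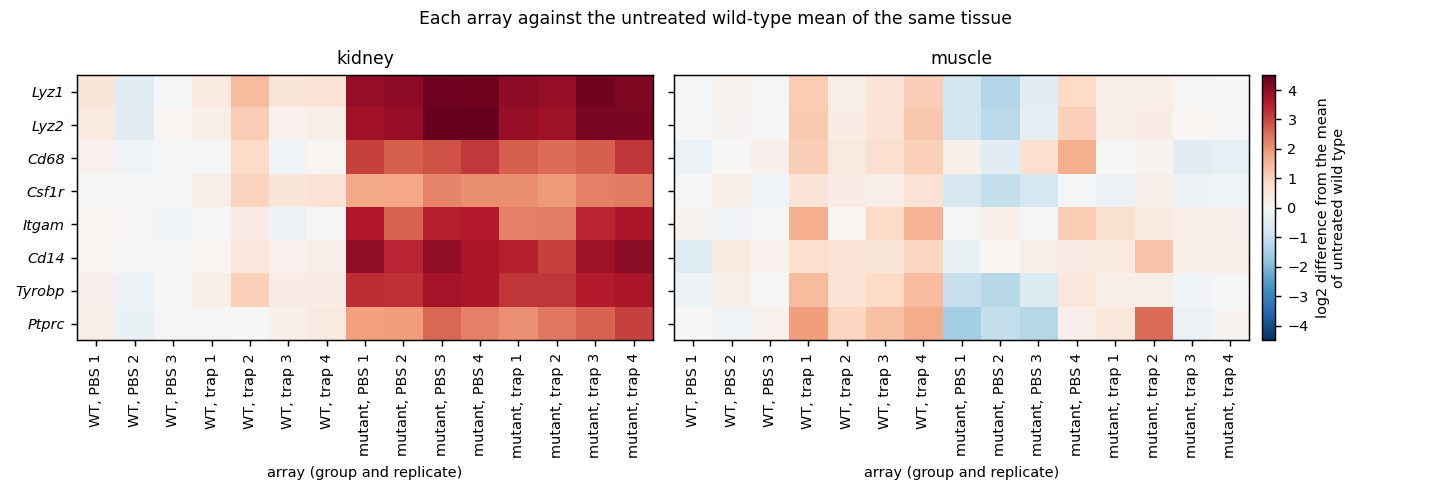
Log2 difference of each array (x axis) from the mean of untreated wild type of the same tissue for each marker (y axis), with red for higher and blue for lower. The 8 mutant kidneys are red throughout. In muscle, untreated mutants 1 to 3 are blue for the lysozymes, Csf1r, Tyrobp and Ptprc, while mutant 4 is red or near white, and treated mutant 2 stands out for Ptprc.

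Neighbouring genes in untreated mutant muscle were called in small numbers, beside 9.04% of all genes called lower and 6.92% called higher. Resident macrophage markers fell in 3 of 12 cases, such as Adgre1, which encodes F4/80 (-0.92 ± 0.23), and Folr2 (-0.80 ± 0.13). Markers shared by monocytes and macrophages fell in 2 of 15, such as Aif1 (-0.83 ± 0.24), and the recruiting ligands Ccl8 (-1.11 ± 0.22) and Ccl12 (-0.54 ± 0.11) fell as 2 of 5. Csf2rb (1.11 ± 0.29), the transcription factor Cebpb (1.04 ± 0.22) and S100a8 (3.03 ± 0.51) rose. Of 8 fibroblast markers 7 fell, such as Col1a1 (-3.93 ± 0.27), and their mean signal spanned 9.22 to 10.0 in these muscles against 11.3 to 11.4 in wild type. The part of that shift in the marker values was not tested.

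With the trap given to both genotypes, the means of all 8 markers were lower in mutant than in wild-type muscle, by 0.15 to 1.02, and limma called 0 of 8, against 1.66% of all genes. An unadjusted p under 0.05 was reached by 4 of 8 markers, as by 8.41% of all genes in the same direction. Cd68 read 5.80, 5.92, 5.28 and 5.43 in treated mutants and 6.92, 6.22, 6.50 and 6.89 in treated wild type (-1.02 ± 0.32, adjusted p = 0.14), with no overlap. Tyrobp read 7.50, 7.45, 7.09 and 7.17 against 8.64, 7.81, 8.10 and 8.59 (-0.98 ± 0.29, adjusted p = 0.12), also apart. Without untreated mutant replicate 4, which enters through the shared spread, Cd68, Csf1r and Tyrobp were called (adjusted p of 0.015 to 0.044), and without treated mutant replicate 2 Ptprc was (-1.35 ± 0.33, adjusted p = 0.049). In each of these fits 1.93% of all genes were called lower. Both arrays were singled out by their values in these same markers, so these calls are not separate tests. Of the neighbours, Aif1 (-1.18 ± 0.22) and Adgre1 (-0.91 ± 0.21) were called lower.

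In mutant muscle the trap moved no marker past the threshold: limma called 0 of 8, against 6.33% of all genes, and 4 of 8 had an unadjusted p under 0.05, as did 21.6% of all genes. Ptprc came nearest, at 6.28, 8.30, 5.49 and 5.90 with the trap and 4.25, 4.68, 4.49 and 6.00 with PBS (1.64 ± 0.48, adjusted p = 0.052). Treated replicate 2 was far above the rest, and in the same array the mean of 12 T cell markers was 5.76 against 5.04 to 5.24 in the other treated mutants, and that of 8 B cell markers 5.87 against 5.08 to 5.29. Without it the change of Ptprc was 1.03 ± 0.33 (adjusted p = 0.096). Without untreated replicate 4, in contrast, 5 of 8 markers were called higher with the trap: Ptprc (2.02 ± 0.46), Tyrobp (1.06 ± 0.21), Lyz1 (1.04 ± 0.21), Lyz2 (0.99 ± 0.21) and Csf1r (0.75 ± 0.15), with adjusted p of 0.012 to 0.025, against 3.31% of all genes. Untreated replicate 4 was singled out by its values in these same markers, so these calls are not a separate test. Cd68 had a lower mean with the trap, at -0.72 ± 0.32 (adjusted p = 0.21), or -0.35 ± 0.26 without untreated replicate 4. In 1 other alternative setting Cd68 was called lower with the trap, against the direction of the markers called higher.

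Around the markers the trap went with 4 called rises among 12 resident macrophage genes in mutant muscle, led by Vsig4 (2.39 ± 0.18) and Timd4 (0.87 ± 0.25), and with 2 among 6 leukocyte integrin genes, Itga4 (1.04 ± 0.25) and Itgal (0.95 ± 0.23). Of the T cell markers Cd28 rose (1.98 ± 0.40) and of the B cell markers Ighm (1.31 ± 0.32), each as the 1 called gene of its list. Fibroblast markers rose in 4 of 8 cases, such as Col1a1 (2.45 ± 0.25). Of all 17781 genes, 743 were called higher in this comparison.

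In wild-type muscle all 8 means were higher with the trap, by 0.46 to 1.46, and limma again called 0 of 8, with adjusted p from 0.24 to 0.42. Only 0.0619% of all genes were called in this comparison. All 8 had an unadjusted p under 0.05, as did 6.06% of all genes in the same direction, and in 7 of 8 the arrays did not overlap, as in 7.06% of all genes. Ptprc read 7.66, 6.74, 7.11 and 7.44 with the trap and 5.75, 5.61 and 5.96 with PBS (1.46 ± 0.51). Tyrobp read 8.64, 7.81, 8.10 and 8.59 against 6.99, 7.46 and 7.18 (1.08 ± 0.32). Itgam was at 5.71, 4.17, 4.94 and 5.63 against 4.19, 3.90 and 4.12 (1.04 ± 0.32) and was the 1 marker whose groups overlapped. The values lean one way, but the markers vary together among these animals, so they are not 8 separate observations. Among the listed genes Vsig4 was the 1 called (2.70 ± 0.19).

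The interaction in muscle called 0 of 8 markers, against 0.169% of all genes, and 2 of 8 had an unadjusted p under 0.05, as did 14.6% of all genes. The largest was that of Cd68 (-1.55 ± 0.48, adjusted p = 0.17), whose mean was higher with the trap in wild type and lower in mutants. Without untreated mutant replicate 4 it was -1.18 ± 0.36 (adjusted p = 0.25). Itgam went from -0.95 ± 0.44 (adjusted p = 0.33) to -0.67 ± 0.39 (adjusted p = 0.50) without that array. Treated mutants and untreated wild type gave 0 called markers, against 0.973% of all genes, with changes of -0.19 to 0.72. The highest was that of Ptprc, which was 0.12 ± 0.36 without treated mutant replicate 2.

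The genotype difference under PBS differed between the tissues in all 8 markers, by 2.42 to 4.59 more in kidney than in muscle, in the fit of all 30 arrays (19.7% of all genes were called in that direction). Lyz1 gave 4.59 ± 0.45 (adjusted p = 3.8e-09), Lyz2 4.57 ± 0.47, Tyrobp 4.09 ± 0.38 and Cd14 3.66 ± 0.33. The smallest, Cd68, was 2.42 ± 0.43 (adjusted p = 4.3e-05). The change with the trap in mutants was not shown to differ between the tissues for any marker: limma called 0 of 8, against 5.26% of all genes, and 2 had an unadjusted p under 0.05, as did 18.8% of all genes.

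Untreated wild-type animals carried more lysozyme signal in muscle than in kidney. Kidney minus muscle was -2.07 ± 0.34 for Lyz1 and -1.68 ± 0.36 for Lyz2, and -0.80 ± 0.32 for Cd68, all called lower as were 36.1% of all genes. Csf1r (0.50 ± 0.19), Cd14 (0.62 ± 0.25) and Ptprc (1.15 ± 0.44) were called higher in kidney, as were 28.5% of all genes. Itgam (-0.44 ± 0.35) and Tyrobp (-0.36 ± 0.29) were not called. Leaving out untreated wild-type animals 1, 2 or 3 in turn left 3, 4 or 2 of these 6 calls, and the lysozyme difference was called each time.

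The order of the 8 group means was shared by Lyz1 and Lyz2, and the other markers each had their own below the top. For every marker both mutant kidney groups came first, with overlapping arrays, and did not overlap the group that came next. Below them Lyz1, Lyz2, Cd68 and Itgam ran through the 4 muscle groups, in different orders, and ended with wild-type kidney. For Csf1r the wild-type kidneys came before the muscles. Most neighbours further down overlapped, the exceptions being treated wild-type muscle above treated mutant muscle for Lyz2, treated above untreated wild-type kidney for Csf1r, and treated above untreated wild-type muscle for Csf1r.

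Several markers varied with Lyz2 among animals of 1 genotype. Lyz1 is counted among them, but its probe sets may also read Lyz2 transcripts, so its relation with Lyz2 is not separate evidence. With Lyz2 as the reference, Pearson's r with each other marker was computed over 8 mutants or 7 wild-type animals in each tissue, 7 relations a family, with exact two-sided permutation of the pairings. In mutant muscle Lyz1 gave r = 0.99 (rho = 1.00, exact p = 2.48e-05, the smallest that 8 animals allow, adjusted p = 0.00017), Tyrobp r = 0.97 (rho = 0.95), Csf1r r = 0.85 (rho = 0.86) and Itgam r = 0.81 (rho = 0.90), and these 4 of 7 passed at an adjusted p under 0.05 (0.026 at most by exact permutation of r, 0.018 by rho). In wild-type muscle 7 of 7 passed, with r of 0.78 to 1.00 and rho of 0.79 to 0.96 (exact permutation, adjusted p at most 0.024 for r and 0.048 for rho). By rho, 6 of 7 passed in mutant muscle. The animals of a genotype span both treatments, so these relations mix the difference with the trap and variation among animals. On deviations from the group means, 5 of 7 passed by r in each genotype, but by rho 2 of 7 did in mutants and 1 of 7 in wild type.

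In kidney 2 of 7 relations passed in mutants, those of Lyz1 (r = 0.97, rho = 1.00) and Tyrobp (r = 0.94, adjusted exact permutation p = 0.014, rho = 0.76, adjusted p = 0.086). The relation of Lyz1 again may reflect signal that the copies share. In wild type 4 of 7 passed by r but 0 of 7 by rho. Without the 2 animals farthest from the median of Lyz2, r in wild-type kidney fell to 0.52 for Tyrobp and 0.18 for Cd14, so those relations rest on these animals. In mutant muscle r without the farthest animals was 0.98 for Tyrobp and 0.87 for Itgam.

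Between the tissues of the same animal no relation passed the threshold. Over 8 mutants r between kidney and muscle ran from -0.74 for Cd14 to 0.44 for Cd68, with rho from -0.45 to 0.40, and 0 of 8 passed after adjustment (lowest exact permutation p = 0.039, adjusted p = 0.31). Over 7 wild-type animals r ran from -0.34 to 0.63, rho from -0.29 to 0.71, and 0 of 8 passed. On deviations from the group means, 7 of 8 values of r were below 0 in wild type, the lowest that of Tyrobp (r = -0.86, exact permutation p = 0.0075, adjusted p = 0.060; rho = -0.86, adjusted p = 0.19), and 0 of 8 passed. So few animals cannot show weak relations.

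The genes most like the 8 markers were sought by Pearson's r with the mean of the scaled markers over the 15 arrays of a tissue, as a description, since the arrays share genotype and treatment groups. In kidney these were C1qb, C1qa and C1qc, the chains of complement C1q, with the protease Ctss and the leukocyte surface peptide Cd52, at r of 0.996 to 0.998. In muscle they were Ctss, Itgb2, Clec4a3, Fcgr3 and Ms4a6d, at r of 0.945 to 0.973. Against the same mean, which they enter themselves, the markers were at r of 0.976 to 0.998 in kidney and 0.693 to 0.972 in muscle, with Cd68 and Cd14 the loosest in muscle.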

How the data were processed

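The values were the authors' deposited normalized log2 signals of Affymetrix mouse arrays, 1 per probe set and array. How they were normalized: not given in the sources used here. RNA was extracted with QIAZOL and labelled with biotin, per the labels' protocols. Array medians were 5.94 to 6.06 in muscle and 6.09 to 6.24 in kidney. Of 35088 probe sets, 31552 had 1 symbol, 825 several and 2697 none, and 14 were controls. Each of 17781 genes was represented by its brightest probe set. Replicates are separate animals, with no batch in the labels, and the small number of arrays sets the precision. In kidney the 18S control signal was lower in every treated array than in every untreated one. It was 12.43 to 12.80 in treated wild type and 12.00 to 12.70 in treated mutants. In untreated kidneys it was 12.97 to 13.06 in wild type and 12.86 to 13.43 in mutants. Kidney comparisons of the trap with PBS thus coincide with a shift in this signal.

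Each tissue was fitted with limma 3.58.1 in R 4.3.3, and both together with a random effect for each animal (its correlation was 0.0749). On simulated data, 93% of genes changed by 1 were recovered in kidney and 86% in muscle for genotype under PBS. The changed genes were drawn at random, each with the same spread in every group. Marker standard errors in that muscle comparison ran from 0.19 to 0.51, so these shares do not give the recovery of the noisier markers. Alternatives covered the probe set, normalization, filter, samples, control signals, replicate block and leaving out each array.

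Genes named are the 8 markers, up to 2 called genes of each list whose arrays did not overlap, the 5 most like the markers and Kif3a. Markers and lists were chosen with earlier results of these data known. Promoters came from RefSeq (GRCm38.p6). Tyrobp, Cd14 and Csf1r promoters were not used here.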

Additional observations from a re-analysis of the deposited data

Results flagged for a closer look

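Of 48 groups of 4 arrays tested for an array far from the others, 4 had one, where chance gives about 2.4 at 1 in 20. Treated wild-type kidney replicate 2 was high for Lyz2 (9.26) and Tyrobp (7.92). Treated mutant muscle replicate 2 was high for Csf1r (9.44). Untreated mutant kidney replicate 2 was low for Itgam (6.30).

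The genotype difference under PBS differed between kidney and muscle in each marker, tested in 1 fit of both tissues. Kidney minus muscle was 4.59 for Lyz1, 4.57 for Lyz2, 4.09 for Tyrobp, 3.66 for Cd14, 3.06 for Ptprc, 3.01 for Itgam, 2.60 for Csf1r and 2.42 for Cd68.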

How the results depend on the processing

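In kidney, 8 of 8 markers were called higher in mutants under PBS and under the trap in every alternative that kept all of them, and 6 of 6 where only genes above the median level were tested. The difference between tissues was called in 8 of 8 in the same way, and no called marker changed sign. Muscle counts moved. Genotype under PBS gave 0 called markers with the mean of all probe sets, with only the groups compared and with the actin covariate (0.14 adjusted p for Csf1r), and 0 to 4 when arrays were left out in turn. With the 18S covariate Csf1r was at -1.07. Genotype under the trap gave 2 with only the groups compared and 2 with the 18S covariate, and 0 to 3 with arrays left out, where untreated mutant replicates 2 and 4 and treated mutant replicate 2 raised the count. The trap in mutants gave 1 with median centring and 0 to 5 with arrays left out (untreated mutant replicates 2 and 4, treated mutant replicate 3). Cd68 was called in 1 of these settings, as lower with the trap. The trap in wild type gave 1 with only the groups compared, and the interaction 0 to 1 with arrays left out (untreated mutant replicate 2). The trap in wild-type kidney gave 0 to 1 (treated replicate 1), the trap difference between tissues 0 to 1 (untreated mutant 4) and untreated wild type between tissues 2 to 6. On deviations from group means, 4 of 7 relations of Lyz2 passed in mutant kidney in place of 2. The cause of these shifts was not tested.

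Replicate numbers here follow the order of the samples in a group, since the titles give animal numbers only. They reflect no known pairing of animals between groups. Same-numbered arrays correlated in their deviations at -0.124 to 0.342 in kidney (median 0.038, against -0.017 for other numbers). In muscle they did so at -0.243 to 0.302 (median -0.017, against -0.013). With the replicate block, the kidney genotype difference under PBS was called in 8 of 8 markers with a median of 3.35, the muscle one in 1 of 8, and the block changed no other count.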
